A study of Mus musculus with 8 samples.

Results

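The transcripts described are those of 9 inhibitory checkpoint receptors of CD8 T cells, namely Pdcd1, Havcr2, Lag3, Tigit, Ctla4, Cd160, Cd244, Btla and Lair1. They were chosen by name, and all 9 were found among the 20029 genes of the deposited table. The RNA came from CD8+ T cells of MC38-OVA tumours, a mouse colon carcinoma line that carries the model antigen ovalbumin, grown under the skin of the right flank. Pglyrp1 knockout mice of the strain B6.129S4-Pglyrp1tm1.1Lky/J (KO, n = 4, samples 1 to 4) were compared with C57BL/6J wild-type mice (WT, n = 4, samples 6 to 9). All 8 mice bore the same tumour line and received no further treatment named in the labels, and the sources used here do not give their age or sex. The allele is carried by the whole animal and is not limited to T cells. Each sample is 1 sequencing library from 1000 living cells gated on CD45, the T cell receptor beta chain and CD8, and the design text gives 4 mice per genotype. The comparison asks how the transcriptome of tumour CD8+ T cells differs when Pglyrp1, an innate immune protein that recognises peptidoglycan, is missing.

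Inhibitory receptors are surface proteins that dampen signals from the T cell receptor and from costimulatory receptors. Activated T cells induce several of them for a short time, and T cells that meet antigen for long periods, as in tumours, keep several at once, a state called exhaustion. PD-1 (Pdcd1), TIGIT and BTLA carry tyrosine motifs that recruit phosphatases, CTLA-4 competes with CD28 for shared ligands, and LAG-3 binds MHC class II. Naive T cells have little of PD-1, TIM-3 (Havcr2), LAG-3 or TIGIT, whereas BTLA is present on naive lymphocytes. Several of these genes are also used by other cells: Havcr2 and Lair1 by macrophages and dendritic cells, Cd160 and Cd244 by natural killer cells, Btla by B cells, and Ctla4 and Tigit by regulatory T cells.

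Levels are given in TPM, the unit named by the authors for their table and meant as a length-normalized share of the library, with every sample brought to a total of 1000000. How the deposited whole numbers were scaled is unknown, and levels of different genes are compared on the premise that they are length-normalized. Differences are KO minus WT of log2(TPM + 1), a scale on which the fold of weakly expressed genes is understated, and come from limma, a linear model fitted to the 10732 genes that reached 1 TPM in 4 or more samples. All 9 receptors met that filter. A gene passed at a Benjamini-Hochberg adjusted p under 0.05 over all genes tested. By this rule 3 genes passed, 0.0280% of those tested (2 higher in KO, 0.0186%, and 1 lower, 0.00932%), and 0 of the 9 receptors were among them. Pglyrp1 itself was listed at 0 in each KO sample and stood at 123 to 210 TPM in WT samples.

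T cell identity was plain in all samples: the mean log2(TPM + 1) of 8 T cell genes was 9.26 to 9.52 in KO and 9.35 to 9.76 in WT samples. Libraries differed within the groups in 2 ways that touch the results. In KO samples 3 and 4, 18 of 20 myeloid markers were higher than in each of the other 6 samples. The summed level of the myeloid markers was 7083 and 9230 TPM there, 626 and 642 TPM in KO samples 1 and 2, and 350 to 1351 TPM in WT samples. In WT samples 6 and 9, 8 of 10 naive and memory T cell markers, such as Ccr7, were higher than in each other sample. Their sum was 2589 and 2379 TPM there, 753 and 890 TPM in WT samples 7 and 8, and 617 to 1640 TPM in KO samples. In such bulk samples fewer cells of a type and less RNA per cell cannot be told apart. The difference of each receptor is therefore given also without KO samples 3 and 4, without WT samples 6 and 9, and without both pairs. The pairs were chosen after the data were seen, so intervals and p-values from the smaller sets may understate the spread between mice. What these markers contribute to the receptor levels was not tested.

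The 9 receptor genes lie on 6 chromosomes of the mm10 (GRCm38) genome. Pdcd1 (chromosome 1, 94038305 to 94052553), Ctla4 (chromosome 1, 60909025 to 60915832) and Cd244 (chromosome 1, 171558718 to 171585316) share a chromosome. Tigit (43626137 to 43665125) and Btla (45223705 to 45252895) lie 1.56 Mb apart on chromosome 16. Havcr2 is at chromosome 11, 46454931 to 46481255, and Cd160 at chromosome 3, 96798763 to 96829351. Lag3 (chromosome 6, 124904359 to 124912434) neighbours its relative Cd4, 16111 bases away. Lair1 (4007073 to 4073567) is the 1 member on chromosome 7, which holds Pglyrp1, and lies 14.8 Mb from it. The RefSeq model of Tigit overlaps that of Zbtb20, which was at 5.89 to 11.4 TPM in KO and 6.25 to 18.3 TPM in WT samples. Reads of overlapping genes cannot be told apart without strand, on which the sources used here are silent. Nothing else in the table overlapped a member.

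RefSeq promoter windows were matched for 8 of the 9 receptors. For Pdcd1, Havcr2 and Ctla4 the 250 bases before the start lie outside the gene model. These are shown because the first pair had profiles over the samples close to each other, while Ctla4 followed them only in part. Like them it was lowest in WT samples 6 and 9, but it was not highest in KO samples 3 and 4. Capitals mark matches to the NFAT core GGAAA or to the AP-1 motif TGANTCA on either strand, motifs of factors that act downstream of the T cell receptor. The sequences read 5′ to 3′ on the gene's strand, from the GRCm38.p6 windows chr1:94052554-94052803 (minus strand), chr11:46454681-46454930 (plus) and chr1:60908775-60909024 (plus).
Pdcd1: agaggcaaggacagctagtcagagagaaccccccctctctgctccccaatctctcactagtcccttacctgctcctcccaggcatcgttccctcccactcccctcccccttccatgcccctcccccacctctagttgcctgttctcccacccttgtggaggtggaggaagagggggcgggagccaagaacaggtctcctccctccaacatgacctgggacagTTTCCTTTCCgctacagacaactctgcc
Havcr2: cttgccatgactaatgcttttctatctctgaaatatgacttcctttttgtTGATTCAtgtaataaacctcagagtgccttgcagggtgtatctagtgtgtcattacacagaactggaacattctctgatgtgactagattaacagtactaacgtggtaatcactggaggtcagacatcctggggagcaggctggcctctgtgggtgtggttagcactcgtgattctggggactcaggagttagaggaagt
Ctla4: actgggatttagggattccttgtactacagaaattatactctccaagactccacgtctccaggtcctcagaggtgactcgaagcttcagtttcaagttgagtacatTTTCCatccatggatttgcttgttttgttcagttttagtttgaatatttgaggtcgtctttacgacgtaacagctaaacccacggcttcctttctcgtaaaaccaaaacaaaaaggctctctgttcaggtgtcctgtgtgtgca
Pdcd1 had a pair of adjacent GGAAA matches on the opposite strand, at positions -28 and -23 before the start, and Ctla4 had 1 at -144. Havcr2 had none and held 1 AP-1 match at -200. Over all 32851 promoter windows of the same length, 55.6% held GGAAA and 6.75% held TGANTCA, so the first is common. Of the 9 windows of members, 6 held GGAAA and 2 held TGANTCA, the other being that of Cd244. The NR4A motif AAAGGTCA, present in 1.34% of all windows, was in 0 of 9. The TCF/LEF motif CTTTGA, present in 13.8%, was in 1, a second start of Cd160. The GGAAA and TGANTCA matches do not overlap in these windows. A match is a description of letters and not of a bound site.

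Pdcd1 encodes PD-1, the receptor for PD-L1 and PD-L2. It was at 323, 370, 538 and 591 TPM in KO samples 1 to 4 and at 53.6, 339, 330 and 173 TPM in WT samples 6 to 9. WT samples 7 and 8 stood at the level of KO samples 1 and 2, and WT sample 6 was far below, so the groups overlapped. The difference was 1.29 (SE 0.53, 95% interval 0.10 to 2.48, limma adjusted p = 0.527). It was 0.94 without KO samples 3 and 4, 0.40 without WT samples 6 and 9, and 0.05 without both pairs. With both pairs left out the 95% interval ran from -0.28 to 0.37 (SE 0.14), from KO samples 1 and 2 and WT samples 7 and 8 alone. The samples left out were those that deviated, so that interval may be too narrow. Leaving out WT sample 6 alone gave 0.71, and the myeloid marker mean as a covariate gave 0.75.

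Havcr2 encodes TIM-3, a receptor without the classical inhibitory tyrosine motif. It was at 90.4, 119, 199.5 and 167 TPM in KO and at 14.6, 103, 63.5 and 39.7 TPM in WT samples. WT sample 7 lay above KO sample 1, the one overlap between the groups. The difference was 1.61 (SE 0.52, limma adjusted p = 0.465), 1.20 without KO samples 3 and 4, 0.76 without WT samples 6 and 9 and 0.35 without both pairs. With the myeloid marker mean as a covariate it was 1.01. In every KO sample the level was above those of WT samples 6, 8 and 9.

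Lag3 encodes a CD4-like receptor for MHC class II. It was at 279, 443, 575 and 504 TPM in KO and at 30.9, 139, 128 and 154 TPM in WT samples. The groups did not overlap: the lowest KO sample stood 1.81-fold above the highest WT sample. The difference was 2.17 (SE 0.48, 95% interval 1.09 to 3.24, limma adjusted p = 0.327), with the 40th smallest unadjusted p of the 10732 genes. It was 1.86 without KO samples 3 and 4, 1.70 without WT samples 6 and 9 and 1.39 without both pairs. In that last set the 95% interval was 0.85 to 1.93 and the limma adjusted p was 0.132. That interval may be too narrow, because the samples left out were chosen after the data were seen. Over all settings tried the limma adjusted p ran from 0.132 to 1.0. Of the 9 receptors, Lag3 had the largest difference in each of these 4 sets of samples. Among its ligand genes, H2-Aa was at 1193 and 1185 TPM in KO samples 3 and 4 and at 23.4 to 209 TPM in the others. H2-Ab1 was at 2366 and 2694 TPM there and at 56.7 to 407 TPM elsewhere.

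Tigit encodes a receptor for CD155 and nectin-2. It was at 377, 393, 461 and 428 TPM in KO and at 73.2, 287, 309 and 133 TPM in WT samples. The KO samples lay within 1.22-fold of each other while the WT samples spanned 4.22-fold, and again the groups did not overlap. The lowest KO sample exceeded the highest WT sample by 1.22-fold. The difference was 1.27 (SE 0.41, 95% interval 0.35 to 2.18, limma adjusted p = 0.465), 1.16 without KO samples 3 and 4, 0.47 without WT samples 6 and 9 and 0.37 without both pairs.

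Lag3 and Tigit were thus the 2 of 9 receptors whose 4 KO samples were all above the 4 WT samples, where 2.62% of all genes tested were. None of the 9 were apart in the other direction (2.40% of genes). All 9 fitted differences were positive, as were 55.2% of those of all genes, with a median of 1.27 beside 0.04 over all genes. An unadjusted limma p under 0.05 was reached by 4 of them (Pdcd1, Havcr2, Lag3 and Tigit), all higher in KO, beside 6.01% of all genes in that direction, and by 0 in the other, beside 3.07%. That count was 1 (Lag3) with the myeloid covariate and without KO samples 3 and 4, and 2 (Lag3 and Tigit) without WT samples 6 and 9 and without both pairs, beside 1.57%, 1.73%, 3.63% and 3.51% of all genes tested, in that order. A difference above 1 was fitted for 6 receptors and for 4.51% of all genes. It was fitted for 3 with the myeloid covariate, 3 without KO samples 3 and 4, and 2 without WT samples 6 and 9 (Lag3 and Lair1) or without both pairs (Lag3 and Btla). The share of all genes above 1 was counted with all samples only, so these further counts have no background beside them. Without both pairs the median of the 9 was 0.35 beside -0.11 over all genes.

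**Figure D1:**
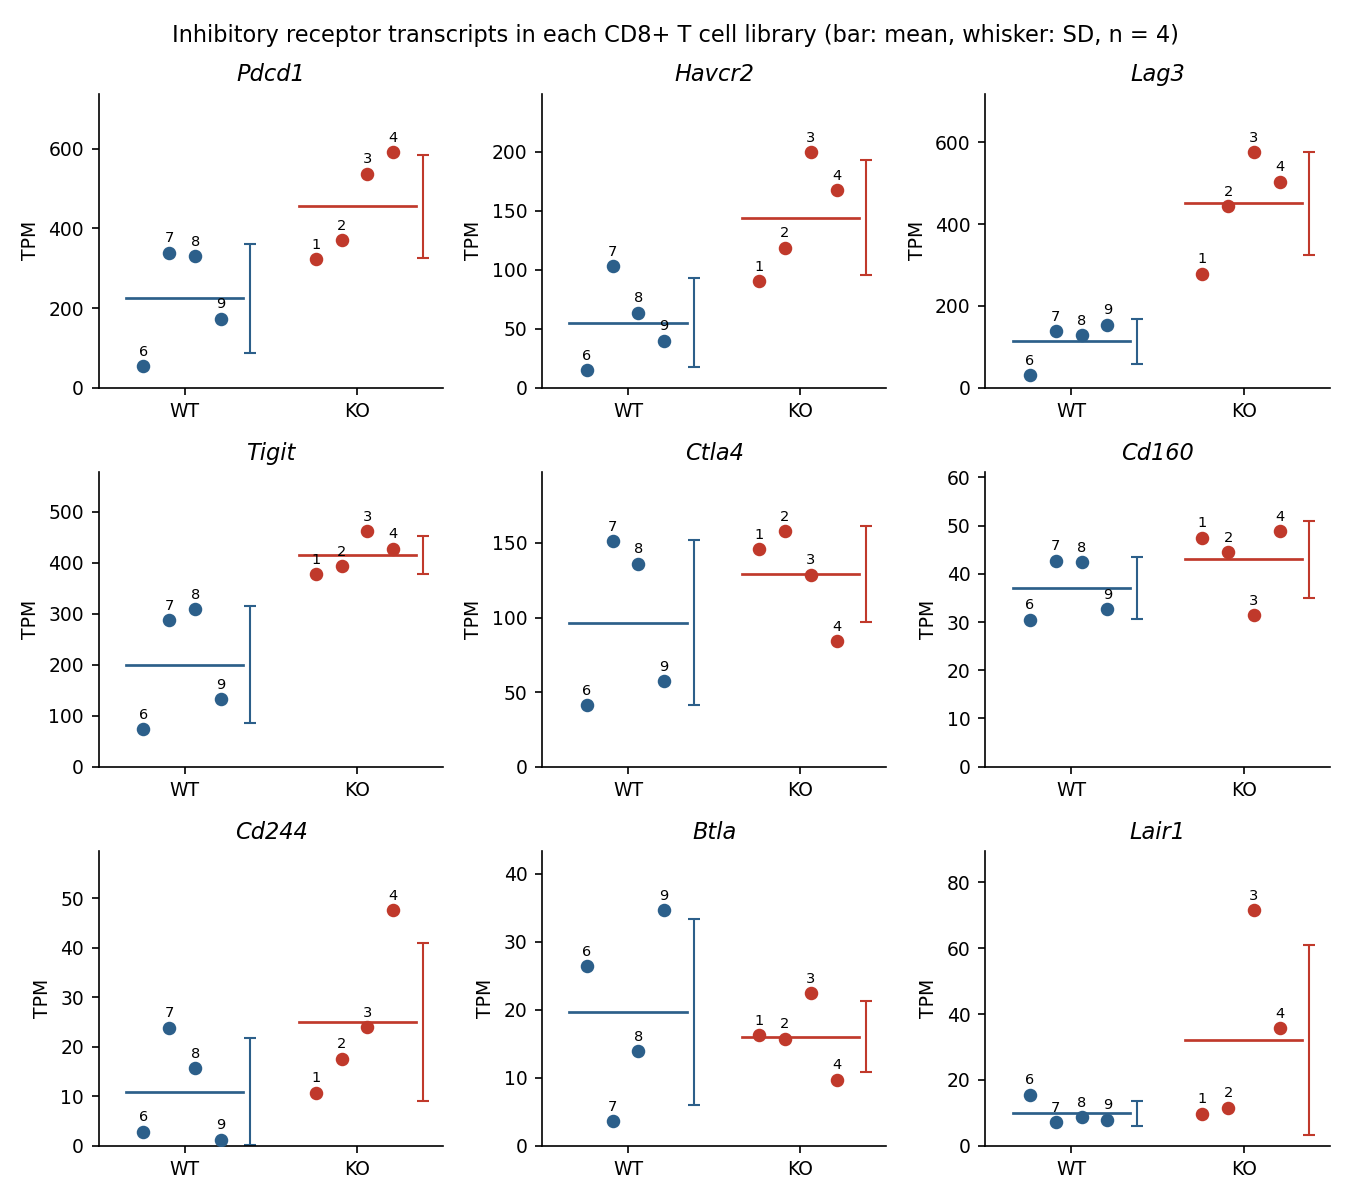
TPM of each receptor transcript (vertical axes, starting at 0) in the 4 WT and 4 KO samples, numbered as in the labels, with the group mean as a line and the SD as a whisker beside it (n = 4). Lag3 and Tigit show no overlap, while WT samples 7 and 8 reach KO values for Pdcd1, Ctla4, Cd160 and Cd244.

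Ctla4 encodes CTLA-4, which takes CD80 and CD86 away from CD28 and is also a marker of regulatory T cells. It was at 146, 158, 129 and 84.2 TPM in KO and at 41.0, 151, 136 and 57.4 TPM in WT samples. WT samples 6 and 9 were lowest and KO sample 4 came next, so that high values occurred in both genotypes. The difference was 0.58 (SE 0.41, 95% interval -0.34 to 1.51, limma adjusted p = 0.688). It was 0.85 without KO samples 3 and 4, -0.19 without WT samples 6 and 9 and 0.08 without both pairs, and 0.25 without WT sample 6 alone. Foxp3, the defining factor of regulatory T cells, was at 2.03 to 7.56 TPM over the 8 samples. The mean log2(TPM + 1) of 9 CD4 and regulatory T cell markers, without Ctla4, was 3.21 to 3.56 in KO and 2.06 to 3.07 in WT samples, with no overlap. Of these markers only Cd4 and Tnfrsf4 were apart and higher in KO, as were 2.62% of all genes tested. The others overlapped, Foxp3 among them, and Cd40lg and Il2 had negative differences (-0.62 and -0.07). The part of these markers in the Ctla4 and Tigit levels was not tested.

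Cd160 encodes a membrane-anchored receptor for HVEM (Tnfrsf14). It was the steadiest member, at 47.5, 44.4, 31.4 and 48.8 TPM in KO and 30.5, 42.7, 42.4 and 32.6 TPM in WT samples. The groups overlapped over most of their span, and the difference was 0.21 (SE 0.19, 95% interval -0.22 to 0.63, limma adjusted p = 0.768). It was 0.32 without KO samples 3 and 4, -0.0041 without WT samples 6 and 9 and 0.11 without both pairs. Leaving out 1 sample gave from 0.12 (without WT sample 6) to 0.35 (without KO sample 3), and 0.31 was fitted with the myeloid covariate.

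Btla, another receptor for HVEM, went its own way. It was at 16.3, 15.7, 22.4 and 9.68 TPM in KO and at 26.4, 3.60, 13.9 and 34.6 TPM in WT samples. Its highest values were in WT samples 9 and 6, the samples with the most naive and memory markers, where Pdcd1, Havcr2, Tigit, Ctla4 and Cd244 were at their lowest. The mean was lower in KO (16.0 ± 5.21 TPM) than in WT (19.6 ± 13.7 TPM; SD, n = 4), while the mean difference on the log2 scale was 0.03 (SE 0.57, limma adjusted p = 0.995). The sign of that difference turned under several scalings, for example to -0.02 with median-ratio scaling, and it was 0.08 without KO samples 3 and 4, 0.99 without WT samples 6 and 9 and 1.04 without both pairs. Of 10 B and plasma cell markers, 7 were also highest in WT samples 6 and 9; Cd79b was at 34.1 and 27.9 TPM there and 5.89 to 16.3 TPM elsewhere. Pax5, a defining factor of B cells, was listed at 0 in every sample but those, where its deposited score was only 1. Of the other markers, Blnk and Mzb1 were highest in KO sample 3, at 39.8 and 8.68 TPM, and Igj was above 0 in WT sample 8 alone. The part of the B and plasma cell markers in the Btla values was not tested.

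Cd244 encodes a receptor of the SLAM family that binds CD48 and can inhibit or activate depending on its adaptors. It was low, at 10.7, 17.5, 23.9 and 47.6 TPM in KO and at 2.84, 23.8, 15.6 and 1.18 TPM in WT samples. The last value rests on a deposited score of 3, and the WT samples spanned 20.2-fold. The difference was 1.56 (SE 0.77, 95% interval -0.16 to 3.28, limma adjusted p = 0.573). It was 0.94 without KO samples 3 and 4, 0.16 without WT samples 6 and 9 and -0.46 without both pairs, and 0.96 both without WT sample 9 alone and with the myeloid covariate. The mean log2(TPM + 1) of 13 natural killer cell markers, without Cd244, was 4.90, 4.94, 5.80 and 5.55 in KO and 3.94 to 4.16 in WT samples. Tyrobp and Fcer1g in that list are also myeloid genes, and without these 2 the mean was 4.64, 4.70, 5.01 and 4.67 in KO and 3.73 to 4.12 in WT samples. Tyrobp, Fcer1g and Klrb1c were apart and higher in KO, as were 2.62% of all genes tested. Klrb1c was at 9.70 to 14.1 TPM in KO and 2.75 to 9.03 TPM in WT samples. All other markers of the list overlapped between the groups, to differing extents. Differences were 0.41 for Nkg7, 0.51 for Gzma, 0.58 for Klrk1 and 0.01 for Klra4. They were larger for Klra7 and Klra9, at 1.41 and 1.37 (limma adjusted p = 0.395 and 0.421), whose groups overlapped narrowly. Klra7 was at 18.1 to 61.7 TPM in KO and 8.996 to 18.3 TPM in WT samples. Klra9 was at 2.52 to 12.8 TPM in KO and 1.22 to 2.75 TPM in WT samples. Ncr1, a defining marker, was at 2.08, 0.907, 5.98 and 7.996 TPM in KO samples. In WT samples it was listed at 0, 0.450, 0 and 1.18 TPM, and KO sample 2 alone lay within that span. The difference of Ncr1 was 1.72 (SE 0.52, limma adjusted p = 0.438). The part of these markers in the Cd244 and Cd160 levels was not tested.

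Lair1 encodes a receptor for collagens that many leukocytes carry. Its level was 9.70, 11.5, 71.5 and 35.8 TPM in KO and 15.4, 7.20, 8.68 and 7.87 TPM in WT samples. KO samples 3 and 4 stood above all others, and KO samples 1 and 2 lay within the WT span. The difference was 1.24 (SE 0.57, limma adjusted p = 0.561). It was 0.16 without KO samples 3 and 4 (95% interval -0.63 to 0.94), 1.46 without WT samples 6 and 9 and 0.38 without both pairs. It was 0.71 without KO sample 3 alone and 0.17 with the mean of the myeloid markers as a covariate. The macrophage gene Lyz2 reached 902 and 2952 TPM in KO samples 3 and 4 and did not exceed 47.2 TPM in the other 6, and Emr1, the macrophage marker F4/80, was listed at 0 in KO sample 1 and in all 4 WT samples. The part of myeloid RNA in the Lair1 level was not tested.

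**Figure D2:**
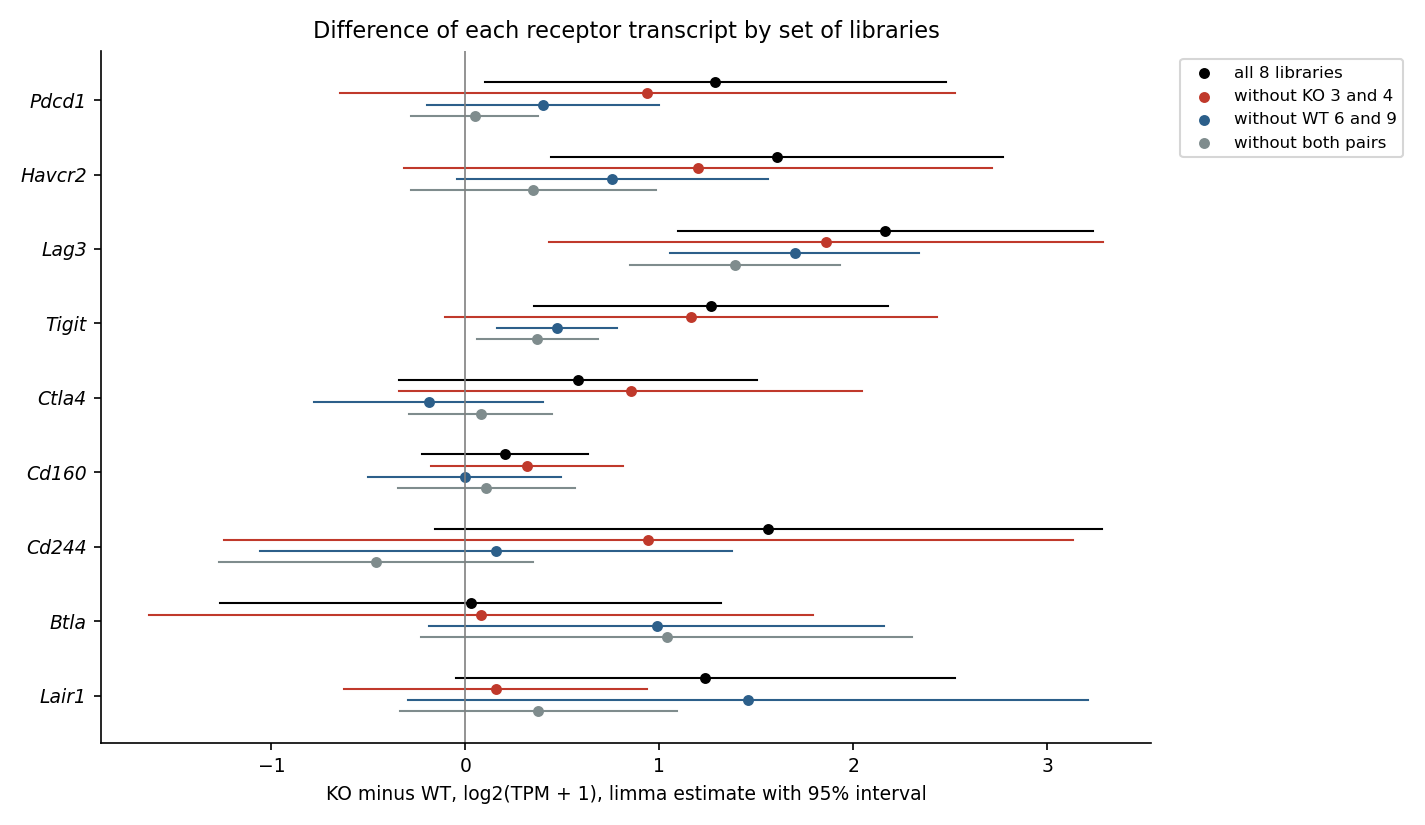
Fitted difference KO minus WT on the log2(TPM + 1) scale (horizontal axis) for each receptor, with 95% limma intervals, for 4 sets of samples. The pairs left out were chosen after the data were seen, so intervals of the smaller sets may be too narrow. Lag3 stays between 1.39 and 2.17, whereas Pdcd1 goes from 1.29 with all samples to 0.05 without both pairs and Lair1 from 1.24 to 0.16 without KO samples 3 and 4.

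Several receptors were lowest and highest in the same samples. WT sample 6 was the lowest of the 8 for 6 of the 9 receptors. The share of all genes lowest in that sample was not counted. It had the fewest genes above 0, 11935 beside 12135 to 13300 in the other samples. WT samples 6 and 9 were the lowest pair for 5 receptors (Pdcd1, Havcr2, Tigit, Ctla4 and Cd244), as they were for 17.3% of all genes tested. KO samples 3 and 4 were the highest pair for 6 (Pdcd1, Havcr2, Lag3, Tigit, Cd244 and Lair1), as they were for 14.2% of all genes. Lag3 departed from this in WT sample 9, which had the highest WT level of that gene. Summed over the 9 genes, the receptors made up 1299, 1572, 2052 and 1916 TPM in KO samples 1 to 4 and 289, 1096, 1048 and 633 TPM in WT samples 6 to 9. The sums did not overlap, with KO sample 1 and WT sample 7 closest.

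The order of levels within a sample was similar in both groups. By mean TPM, Pdcd1, Lag3 and Tigit led in KO samples and did not differ beyond their spread: Pdcd1 was above Lag3 in 2 of 4 samples and Lag3 above Tigit in 3 of 4. Havcr2 and Ctla4 followed, each above the other in 2 of 4 KO samples, then Cd160 at 43.0 ± 7.96 TPM (SD, n = 4). Lair1, Cd244 and Btla were lowest, with overlapping ranges. In WT samples Pdcd1 and Tigit led, followed by Lag3. Lag3 and Ctla4 were close there, with Lag3 the higher of them in 1 of 4 samples, whereas Lag3 was above Ctla4 in all 4 KO samples. As a share of the summed TPM of the 9 receptors, Lag3 was 21.5%, 28.2%, 28.0% and 26.3% in KO and 10.7%, 12.6%, 12.3% and 24.3% in WT samples. Tigit, the steadiest large share, was 22.3% to 29.0% in KO and 20.9% to 29.5% in WT samples. In WT sample 6, where the sum was lowest, Cd160 made up 10.6%, Btla 9.15% and Lair1 5.35%.

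**Figure D3:**
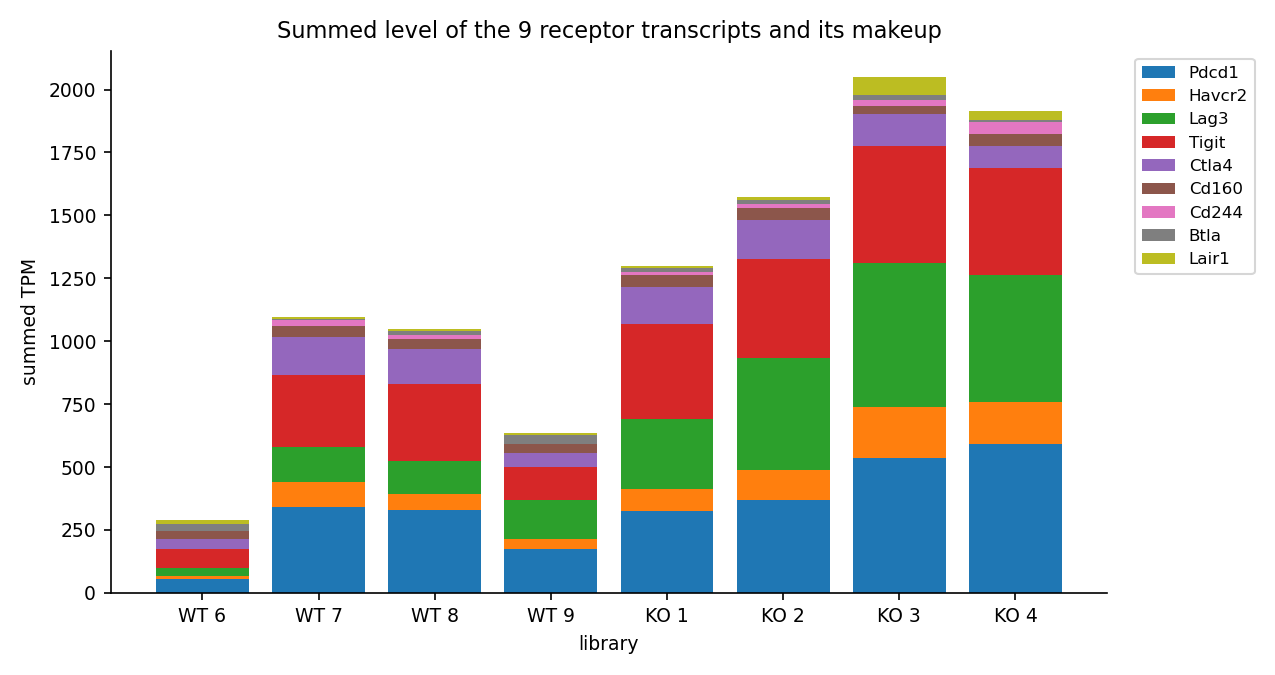
Summed TPM of the 9 receptor transcripts in each sample (bars, from 0), split by gene. The 4 KO samples reach 1299 to 2052 TPM and the WT samples 289 to 1096 TPM, with the Lag3 segment larger in KO samples.

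Likeness of profiles was described by the root-mean-square difference of log2(TPM + 1) values, each gene centred on its mean over the 8 samples, over 6195 candidates whose mean reached 10 TPM. These distances contain the difference between genotypes and whatever else the samples share. Pdcd1 and Havcr2 were each other's nearest receptor, at 0.27, and both had Plscr1, a phospholipid scramblase, as nearest gene (0.20 and 0.23). The next for Pdcd1 were Bcl2a1d, 1 of several near-identical survival genes whose reads may be split, and Nrp1, the coreceptor neuropilin-1 (0.26). Havcr2 had Pdcd1 and Litaf next. For Lag3 the nearest genes were Tnfrsf9, the costimulatory receptor 4-1BB (0.32), Dusp4, a phosphatase of MAP kinases (0.41), and Upp1, uridine phosphorylase (0.43), and no receptor was nearer than Havcr2 at 0.48. Tigit was closest to Serpinb9, an inhibitor of granzyme B (0.16), Nabp1 (0.19) and Bcl2a1b (0.20). Ctla4 was closest to Itgb3 (0.17), Il18rap, a subunit of the interleukin-18 receptor (0.23), and Ifngr1, a subunit of the interferon gamma receptor (0.24). Its nearest receptor was Tigit at 0.46, within its own spread of 0.68. Genes near Cd244 included Ifitm2 (0.39) and Adam8 (0.47). Btla had Tlr1 (0.39), Rab3ip (0.39) and Arl5c (0.42) nearest, and its nearest receptor, Cd160, was at 1.04, farther than the 0.85 by which Btla varied around its own mean. Lair1 had Stx7 (0.34), Oasl2 and Cybasc3 (0.39 each), with Tigit the nearest receptor at 1.11, likewise farther than its own spread of 1.05. Cd160 varied little (0.25), so flat genes such as Pafah1b2, Slc38a10 and Trim35 (0.10 each) were nearest. Its nearest receptor, Ctla4, was at 0.56, also farther than that spread.

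**Figure D4:**
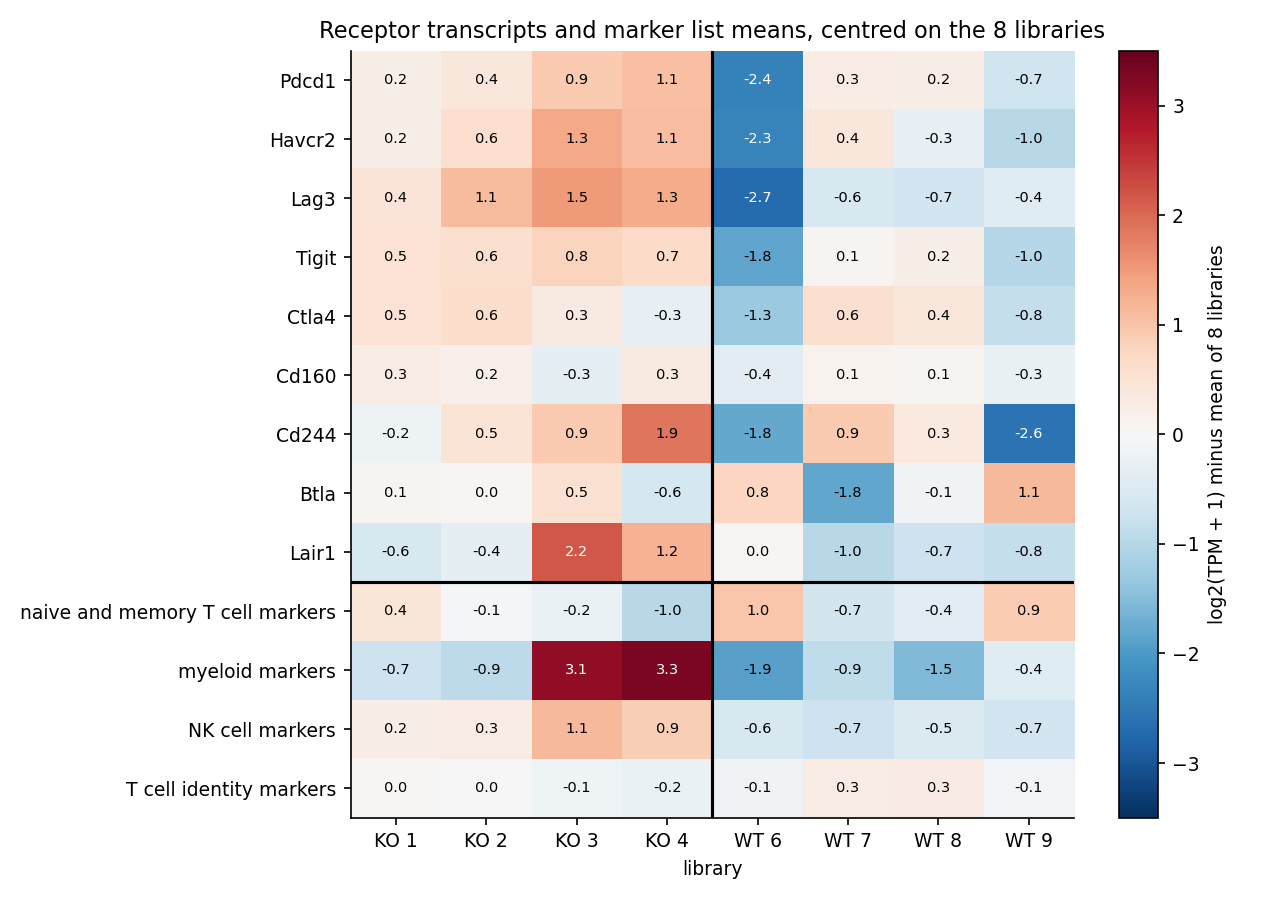
Log2(TPM + 1) of each receptor and mean of 4 marker lists, minus the mean over the 8 samples (colour and printed value), by sample (columns). Pdcd1, Havcr2, Lag3 and Tigit are lowest in WT sample 6 and highest in KO samples 3 and 4, Btla is highest in WT samples 6 and 9, and the myeloid markers stand out in KO samples 3 and 4.

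TIGIT and CTLA-4 each compete with an activating receptor for the same ligands, CD226 and CD28. The ratio of Tigit to Cd226 TPM was 5.15, 4.34, 7.14 and 9.77 in KO samples 1 to 4 and 1.22, 2.14, 2.96 and 1.63 in WT samples 6 to 9. Every KO sample was above every WT sample, and the geometric mean ratio was 3.31-fold higher in KO (difference of log2 ratio 1.73; KO 2.63 ± 0.51, WT 0.91 ± 0.55; SD, n = 4). The two-sided exact permutation p over 70 assignments was 0.0286, the smallest possible, and 0.0571 after Benjamini-Hochberg adjustment over the 2 ratios, so it did not pass. Cd226 alone was at 43.8 to 90.7 TPM in KO and 60.1 to 134 TPM in WT samples (difference -0.46, SE 0.28, limma adjusted p = 0.645), which was -0.16 without KO samples 3 and 4 and -0.83 without WT samples 6 and 9. The log2 ratio differed by 0.90 without both pairs. The ratio of Ctla4 to Cd28 was 1.17 to 1.51 in KO and 0.639, 1.24, 1.05 and 0.785 in WT samples (difference of log2 ratio 0.56, exact permutation p = 0.0571, adjusted 0.0571). It was 0.22 without WT samples 6 and 9 and 0.16 without both pairs. WT sample 7 was above KO sample 1 in that ratio. Cd28 was at 65.2 to 124 TPM in KO and 64.2 to 130 TPM in WT samples, a difference of 0.02 (limma adjusted p = 0.992) whose sign turned with the scaling, to -0.02 with median ratios.

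**Figure D5:**
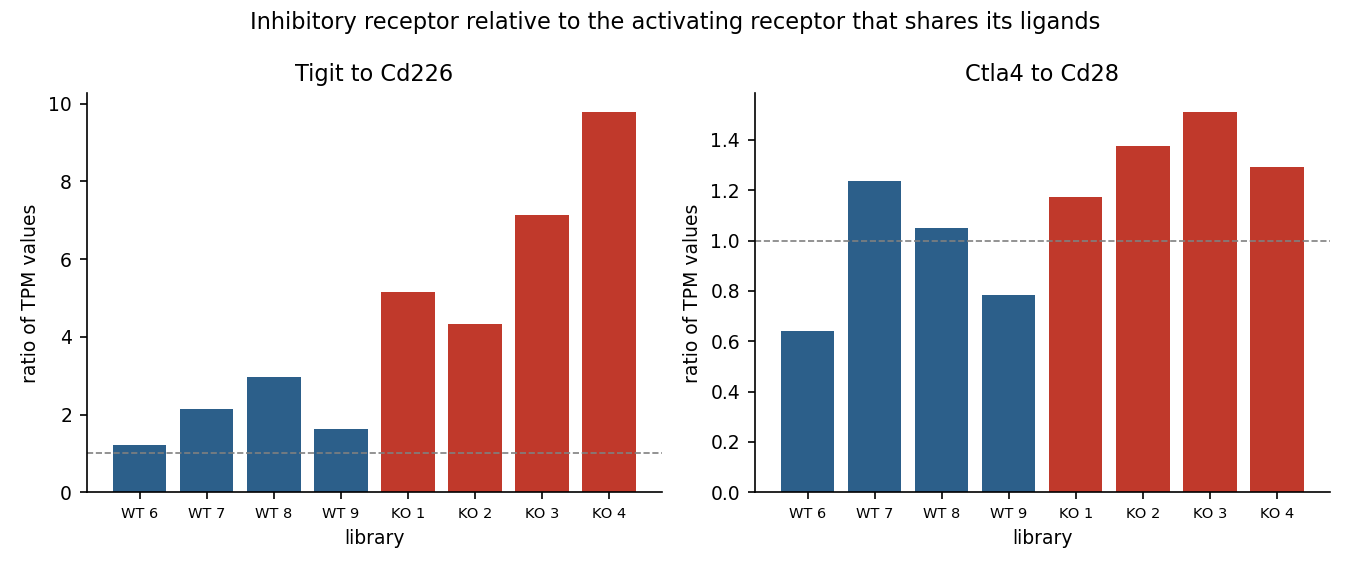
Ratio of Tigit to Cd226 and of Ctla4 to Cd28 TPM (vertical axes, from 0) in each WT and KO sample, with a dashed line at 1. For Tigit to Cd226 the KO samples lie at 4.34 to 9.77 and the WT samples at 1.22 to 2.96, while WT sample 7 overlaps the KO samples for Ctla4 to Cd28.

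Genes that act with these receptors were described from 6 lists, in each of which 0 genes passed over all genes tested. Of all genes tested, 55.2% had a positive difference and 2.62% were apart and higher in KO. Their median difference was 0.04, and -0.11 without both pairs. The genes named had the smallest p of their list, so a lack of overlap among them was selected for. Apart and higher were 1 of 14 ligand genes and 1 of 12 other inhibitory receptors. Of 14 measured ligand genes, 12 had a positive difference, with a median of 0.77. Cd274, which encodes PD-L1, had 61.7, 49.3, 75.7 and 48.4 TPM in KO against 22.8, 41.4, 38.2 and 22.4 TPM in WT samples, with no overlap (difference 0.92, SE 0.25, limma adjusted p = 0.395). It was 0.53 without WT samples 6 and 9 and 0.46 without both pairs. H2-Aa and H2-Ab1, given with Lag3, had differences of 2.23 and 2.17 (limma adjusted p = 0.594 and 0.611), which were 0.05 and -0.13 without KO samples 3 and 4. The median of the ligand list was 0.03 without KO samples 3 and 4 and -0.36 without both pairs, beside -0.02 and -0.11 over all genes. Of 12 other inhibitory receptors, 9 were positive and 3 negative (median 0.80, and -0.13 without both pairs, the latter beside -0.11 over all genes). Lilrb4, an inhibitory receptor that myeloid cells also carry, had 82.8, 77.1, 190.3 and 302 TPM in KO against 23.2, 58.5, 69.5 and 27.5 TPM in WT samples, with no overlap (difference 1.76, limma adjusted p = 0.395). It was 0.97 without KO samples 3 and 4, 1.11 without WT samples 6 and 9, 0.32 without both pairs and 0.88 with the myeloid covariate. Cd300a, likewise used by myeloid cells, had a difference of 1.08 (limma adjusted p = 0.496), which was 0.46 without KO samples 3 and 4, 0.37 without both pairs and 0.32 with the covariate. Cd96, a relative of TIGIT that shares a ligand with it, was lower on average, at 79.0 to 97.6 TPM in KO and 97.6 to 151 TPM in WT samples (difference -0.43, limma adjusted p = 0.501).

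Among transcription factors tied to receptor expression, 13 of 16 measured were positive, with a median of 0.42, beside 55.2% and 0.04 over all genes. Nr4a2, an orphan nuclear receptor induced by antigen receptor signals, had 31.9, 22.7, 40.4 and 42.5 TPM in KO against 3.25, 7.65, 6.95 and 9.05 TPM in WT samples. The groups did not overlap, nor did those of Irf4, an interferon regulatory factor induced by the same signals, at 19.3 to 29.9 and 4.33 to 16.2 TPM. These were the 2 of 16 apart and higher in KO, beside 2.62% of all genes. The differences were 2.22 (SE 0.31, limma adjusted p = 0.101) and 1.47 (SE 0.41, limma adjusted p = 0.395), and Nr4a1 had 0.97 (limma adjusted p = 0.473). Without both pairs Nr4a2 was at 1.75, Irf4 at 0.64 and Nr4a1 at 0.91, and without WT samples 6 and 9 Irf4 was at 0.69 and Nr4a1 at 0.53. The median of this list was 0.26 without both pairs, beside -0.11 over all genes.

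Signalling proteins used by the receptors showed smaller differences, with 9 of 14 positive and a median of 0.12, beside 55.2% and 0.04 over all genes. For lists this short the counts of positive genes in this paragraph lie near that share, and nothing is read from them. Cblb, which tags signalling proteins with ubiquitin and thereby limits activation, was at 59.6 to 74.5 TPM in KO and 31.3 to 45.8 TPM in WT samples (difference 0.82, SE 0.15, limma adjusted p = 0.281). Its groups did not overlap, the 1 of 14 in this list, beside 2.62% of all genes apart in that direction. Lck, the kinase next to the CD8 coreceptor, and Dgka, a diacylglycerol kinase, had differences of -0.31 and -0.63 (limma adjusted p = 0.597 and 0.601). Dgka was at -0.38 without KO sample 4 alone, -0.14 with the myeloid covariate and 0.28 without both pairs, and Lck at -0.11 without KO samples 3 and 4 and -0.07 with the covariate. The activating partners were balanced, with 4 positive and 6 negative of 10 (median -0.07). Ly9, a SLAM receptor, had a difference of -0.50 (limma adjusted p = 0.497), and Cd2, the adhesion receptor for CD48, -0.13 (limma adjusted p = 0.844). Without both pairs Ly9 was at -0.21, and Cd2 turned to 0.07 without KO samples 3 and 4 and to 0.11 with the covariate. Of 7 genes for trafficking and turnover of the receptors, 5 were positive (median 0.14). They include Adam17 (0.41) and Adam10 (0.30), the proteases that shed LAG-3, and Ap2m1 (0.22), the adaptor that takes up CTLA-4, with limma adjusted p from 0.590 to 0.683. All 3 were slightly negative without both pairs, at -0.03 to -0.096, where the median over all genes was lower still at -0.11.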

How the data were processed

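RNA was measured in 8 libraries of sorted tumour CD8+ T cells (full-length SMART-Seq2 cDNA, Nextera XT, paired reads of 38 bases, per the labels' protocols). The deposited table holds 1 score per gene and library, which the authors label as TPM-normalized counts. These are whole numbers with library totals of 2223162 to 3342847, so not TPM as such. Among genes listed at 0 in some library, the smallest value above 0 had a median of 14.0 where the longest transcript was under 500 bases and of 1.0 from 1000 bases up, so values stepped with length and were not taken for raw counts. The submitters' processing notes name RSEM 1.3.3 and mm10; the aligner, annotation, scaling and rounding were not given in the sources used here. Depth is therefore unknown, and 1 deposited unit was worth 0.299 to 0.450 TPM after rescaling. The test had been planned for TPM and was not changed. No table column was left unused.

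Tests used limma 3.58.1 in R 4.3.3 (mean trend, genotype as the only term) on log2(TPM + 1), with a pseudocount of 1; tables used pandas 2.3.3 and numpy 2.4.6 in Python 3.11.15. With samples left out, the filter of 1 TPM applied in as many samples as the smaller group held. The test was also run on simulated data. The receptors, lists and settings were chosen with earlier results of these data known, and leaving out pairs of libraries was added after the data were seen. Named are all receptors, up to 3 list genes of smallest p, the 3 genes nearest to each receptor (1 is not reported here), Pglyrp1, Cd226 and Cd28; other marker genes and Zbtb20 were named after their values were seen. Of 173 list entries in 14 lists, 169 matched, 7 by an older symbol; marker sums leave out the receptors. With 1 library a mouse, p-values rest on the spread among mice. Gene and promoter positions are RefSeq's, GRCm38.p6, 1-based.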

Additional observations from a re-analysis of the deposited data

Results flagged for a closer look

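Lag3 was at 30.9 TPM in WT sample 6, where the other WT samples were at 128 to 154 TPM. On the log2(TPM + 1) scale the gap to the nearest library was 0.887 of the range of the 4 WT samples. The check for a lone library was run on 61 groups of 4 libraries, of which chance would mark about 1 in 20, and marked this 1. Without WT sample 6 the difference of Lag3 was 1.63 (limma adjusted p = 0.254), beside 2.17 with all samples; over the settings tried the adjusted p ran from 0.132 to 1.0.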

How the results depend on the processing

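Over 22 alternatives, 0 receptors passed in any. Receptors with a positive difference numbered 9, but 8 with a pseudocount of 5 and under median-ratio, quantile and ribosomal-gene settings, 8 to 9 with 1 sample left out, 7 without WT 6 and 9 and 8 without both pairs. Pdcd1, Havcr2, Lag3, Tigit and Lair1 kept a positive difference in all 22. No paired analysis was possible because numbers differ between the groups: the KO samples are numbered 1 to 4 and the WT samples 6 to 9. Leaving out pairs was added after the data were seen. Genes past the threshold numbered 3, 2 to 9 with 1 sample left out (5 without KO sample 1, 9 without KO sample 2), 5 without either KO 3 and 4 or WT 6 and 9, and 10 without all 4. Receptors apart numbered 2 to 4 with 1 sample left out, beside 3.24% to 6.20% of all genes tested in that direction. Without both pairs they numbered 5, beside 13.3% of genes, and with all samples 2, beside 2.62%. The count of receptors cannot fall when samples are removed. Without WT 6 and 9 the difference was -0.19 for Ctla4, -0.0041 for Cd160, -0.41 for Cd28 and -0.0038 for Ap2m1. Without both pairs it was -0.46 for Cd244, 0.28 for Dgka, -0.03 for Adam17, -0.096 for Adam10, -0.034 for Ap2m1 and -0.078 for Cd28. Without KO 3 and 4 it was -0.13 for H2-Ab1 and 0.073 for Cd2. With the myeloid covariate it was -0.33 for H2-Aa (itself in that marker list, so this says nothing of it), -0.55 for H2-Ab1 and 0.11 for Cd2. Btla was -0.047 with a pseudocount of 5, -0.019 with median-ratio scaling, -0.059 with quantile normalization, -0.090 with ribosomal and the 20 highest genes removed, and -0.57 to 0.41 with 1 sample left out. Cd28 was -0.024, -0.075 and -0.11 under those 3 scalings and -0.15 to 0.20 with 1 sample left out. Scaling to T cell identity genes gave Cd2 0.016. That scaling moved the median of all genes by 0.13, the removal of ribosomal and top genes by -0.12; the receptor medians were then 1.41 and 1.14, beside 1.27. List medians with the covariate and on leaving out KO 3 and 4, WT 6 and 9 or both were, in that order, 0.13, 0.16, 0.053 and -0.13 for other inhibitory receptors (0.39 to 1.03 with 1 sample left out) and -0.015, 0.032, 0.036 and -0.36 for ligands. In the same order the medians of all genes were -0.027, -0.020, -0.038 and -0.11. Signalling proteins had -0.10 under the covariate, -0.10 without KO 3 and 4, -0.19 without both pairs, -0.011 without ribosomal genes and 0.26 with T cell scaling. Activating partners had 0.34 under the covariate and 0.31 without KO 3 and 4, trafficking genes -0.072 without both pairs, and transcription factors 0.34 to 0.69 with 1 sample left out. The log2 ratios differed by 1.52 to 1.94 (Tigit to Cd226) and 0.40 to 0.71 (Ctla4 to Cd28) with 1 sample left out. Without WT 7 both had an exact permutation p, adjusted over the 2, of 0.0286, the smallest possible with 1 sample left out. WT 7 was the sample that overlapped the KO samples for Ctla4 to Cd28, so leaving it out removed that overlap. The cause of these changes was not tested. Depth is unknown, so counting error is not separated from the spread between mice.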

Other observations

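The marker lists not described with the receptors had these mean levels on the log2(TPM + 1) scale. Erythroid and platelet markers were at 3.32, 3.71 and 3.20 in KO sample 1, KO sample 4 and WT sample 9 and at 0.314 to 1.46 in the others. Tumour and stroma markers were at 3.59 in KO sample 4, 1.37 in KO sample 3 and at most 0.449 elsewhere. Cd4, the chromosomal neighbour of Lag3, had 66.7 and 15.6 TPM in KO samples 3 and 4, at most 4.84 TPM in the other KO and 0.393 to 2.25 TPM in WT samples. B and plasma cell markers were at 1.87 and 1.90 in WT samples 6 and 9 and at 0.375 to 1.64 in the others. How these levels bear on the receptors was not tested.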
